A study of Mus musculus with 12 samples.

Results

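Rsad2, Cmpk2, Mx1, Mx2, Samd9l, Bst2, Ifitm3, Rnf213 and Rtp4 are interferon-induced genes whose products act directly on viruses or on the nucleotides and membranes that viruses need. They were found by symbol among the Ensembl gene identifiers of the count table, where all 9 had a single row of 55416 rows in all. RNA was measured in SIM-A9 cells, a mouse microglial cell line of C57BL/6 background per the labels, in 4 groups of 3 biological replicates. Cells of the H14 line, in which the labels say the kinase MOK was knocked out (KO), received lipopolysaccharide (LPS) at 1 µg/mL for 5 h, SIM-A9 cells labelled wild type (WT) received the same dose for the same time, and KO and WT cells were kept in medium alone. The comparisons address how loss of MOK changes the response to LPS, the bacterial cell wall component sensed by Toll-like receptor 4. H14 was the only KO line, so the effects of losing MOK and of other changes in that line cannot be told apart.

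In macrophages and microglia, LPS acts through Toll-like receptor 4 and the adaptor TRIF to switch on interferon beta, which is secreted and binds its receptor on the same and on neighbouring cells. The receptor signals through STAT2 and IRF9, parts of the complex ISGF3, which binds a short DNA element, the interferon-stimulated response element, in front of antiviral genes. IRF7, itself induced by interferon, adds to the signal.

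Promoter windows from RefSeq on GRCm38.p6, running from 250 bases before to 50 bases after the annotated start, were at hand for 6 of the 9 genes, namely Rsad2, Cmpk2, Samd9l, Bst2, Ifitm3 and Rnf213. The core of the interferon-stimulated response element was searched on both strands as GAAA, any 2 bases and GAAA again, and was present in 3 of these 6 genes, against 3.44% of all 32851 promoter windows in the table. The windows with a match are shown because they carry the element through which this gene family is known to be induced, and that of Cmpk2 because it is the chromosomal neighbour of Rsad2 and holds no match. Capitals mark the letters matched, and each window reads 5′ to 3′ on the strand of its gene. The windows are chr12:26456403-26456702 on the minus strand, chr8:71537423-71537722 on the minus strand, chr7:141010695-141010994 on the minus strand and chr12:26468965-26469264 on the plus strand.
Rsad2: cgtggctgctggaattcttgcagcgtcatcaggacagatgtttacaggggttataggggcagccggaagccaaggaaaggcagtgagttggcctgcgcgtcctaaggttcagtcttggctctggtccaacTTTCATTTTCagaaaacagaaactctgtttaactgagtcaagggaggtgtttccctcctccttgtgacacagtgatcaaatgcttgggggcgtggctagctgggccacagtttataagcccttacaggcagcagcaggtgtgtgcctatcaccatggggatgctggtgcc
Bst2: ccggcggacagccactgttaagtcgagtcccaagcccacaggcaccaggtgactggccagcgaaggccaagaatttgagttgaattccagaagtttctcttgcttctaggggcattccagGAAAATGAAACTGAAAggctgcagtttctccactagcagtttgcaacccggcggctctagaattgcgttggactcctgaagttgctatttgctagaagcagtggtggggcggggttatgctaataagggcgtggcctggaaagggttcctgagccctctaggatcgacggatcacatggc
Ifitm3: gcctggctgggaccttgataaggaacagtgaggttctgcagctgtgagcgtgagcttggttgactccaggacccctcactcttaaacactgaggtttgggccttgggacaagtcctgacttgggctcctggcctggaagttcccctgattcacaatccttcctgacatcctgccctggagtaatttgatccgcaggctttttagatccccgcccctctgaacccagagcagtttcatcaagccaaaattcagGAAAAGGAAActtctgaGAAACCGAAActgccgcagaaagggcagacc
Cmpk2: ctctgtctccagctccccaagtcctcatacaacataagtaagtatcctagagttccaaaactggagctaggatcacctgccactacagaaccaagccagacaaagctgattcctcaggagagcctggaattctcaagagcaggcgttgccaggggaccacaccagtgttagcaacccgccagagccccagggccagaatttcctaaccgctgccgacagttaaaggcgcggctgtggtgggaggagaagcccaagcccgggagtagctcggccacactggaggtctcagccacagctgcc
Rsad2 held 1 match on the opposite strand, from base -120 to base -111, counted from the start site. Bst2 held 2 overlapping matches, which began at bases -130 and -124. Both matches of Ifitm3 lay after the annotated start, beginning at bases 3 and 20. The gamma-activated site TTCNNNGAA was present in the windows of Bst2 and Ifitm3 and in 8.3% of all windows, and in both genes it overlapped a response element match. The NF-kB pattern of GGG, any 2 bases and TTTCC was found in none of the 6 windows and in 1.63% of all windows. A missing match says only that these letters are not in these windows.

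Total counts ran from 39726866 to 72922794 per library. Levels are given as CPM, counts scaled to the TMM-corrected library total. Mok, the gene labelled as knocked out, was detected in every library. It was at 1.52 ± 0.19 CPM in KO LPS cells and 2.50 ± 0.33 CPM in WT LPS cells (SD, n = 3 each). Its log2 fold change under LPS was -0.72 ± 0.19 (SE, edgeR adjusted p = 0.0177). That call was lost without WT LPS replicate 1 or 3 or KO LPS replicate 3 (edgeR adjusted p = 0.0785, 0.0515 and 0.0753). In medium Mok was at 2.25 ± 0.33 CPM in KO cells and 3.35 ± 0.16 CPM in WT cells, and its log2 fold change of -0.58 ± 0.19 just missed the threshold (edgeR adjusted p = 0.0501) but passed it in 6 of 10 alternative settings. Of 10 fixed markers of microglia and macrophages, 8 had a mean above 1 CPM in KO LPS cells and 10 in each of the other groups, with Cx3cr1 at 0.834 CPM and Aif1 at 0.883 CPM in KO LPS cells. Their summed level was 1093 to 1518 CPM in KO LPS libraries, 1509 to 1756 CPM in WT LPS libraries, 796 to 1154 CPM in KO medium libraries and 1151 to 1359 CPM in WT medium libraries. Single markers differed more than the sums. Itgam was at 2.95 CPM in KO LPS and 24.2 CPM in WT LPS cells, and at 3.67 and 20.9 CPM in medium. Csf1r was also called lower in KO cells under LPS and in medium (log2 fold change -0.55 and -0.70), while Cd68 and Ptprc were called in neither. The defining markers of homeostatic microglia P2ry12, Sall1 and Siglech had means below 1 CPM in every group. Summed markers of astrocytes, neurons, fibroblasts and endothelium stayed at 7.21 CPM or below in every library. The sum for oligodendrocytes reached 20.4 to 22.2 CPM in KO medium libraries and 9.05 to 11.3 CPM in WT medium libraries, nearly all of it Mbp, with Mog below 0.1 CPM in every group. The part of these differences in the results below was not tested. Processed pseudogenes took 6.64% to 7.35% of the counts in KO LPS libraries, 6.28% to 7.05% in WT LPS libraries, 12.8% to 14.3% in KO medium libraries and 6.57% to 13.1% in WT medium libraries. Identifiers that matched no symbol took 10.4% of KO LPS replicate 2 and 4.86% to 8.16% of each remaining library, and KO LPS replicate 2 had the lowest level of all 9 genes among the KO LPS libraries. Its level, set against the mean of KO LPS replicates 1 and 3, lay between 0.278 times for Rsad2 and 0.726 times for Rnf213.

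Under LPS the 9 antiviral genes were lower in the KO line without exception, and the libraries of the lines overlapped for none of them. The deficit ran from 1.5-fold for Bst2 to more than 20-fold for Samd9l and Mx1. LPS itself raised all 9 genes in WT cells and 8 of them in KO cells, where Ifitm3 fell. Of all 26420 genes tested, 12.7% were called lower and 7.87% higher in KO cells under LPS, and 19.6% had all KO LPS libraries below all WT LPS libraries. With LPS in WT cells, 32.6% of all genes were called, 16.3% as higher, and 24% had all LPS libraries above all medium libraries. With LPS in KO cells, 52% were called, as 25.3% higher and 26.8% lower, while 28.8% of genes had all LPS libraries above and 32.6% all LPS libraries below the medium libraries. The 9 of 9 lower members under LPS stand beside the 12.7%, and the 9 and 8 members raised by LPS beside the 16.3% and 25.3%. Mx1, counted among the raised members, passed the filter on low counts through LPS libraries alone. Its rise is thus in part set by the filter. In these bulk samples, fewer cells that express a gene and less RNA per cell cannot be told apart.

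**Figure D1:**
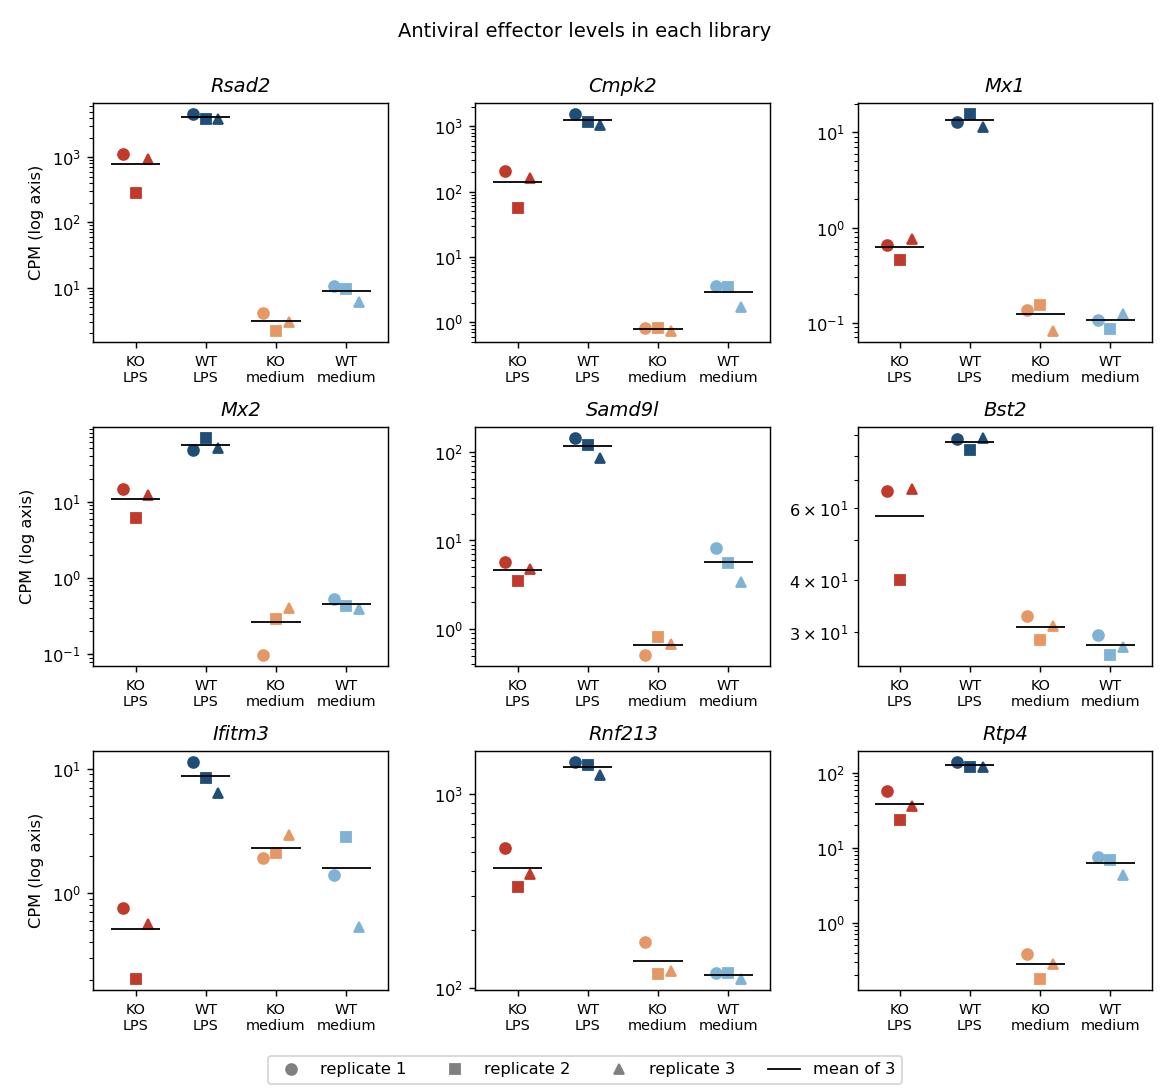
Level of each of the 9 antiviral genes in CPM in the 12 libraries, on a log axis with a separate scale per gene. CPM are counts scaled to the TMM-corrected library total. Symbols mark the replicates and a line marks the mean of 3. For every gene the 3 KO LPS libraries lie below the 3 WT LPS libraries, and for Ifitm3 they also lie below the KO medium libraries.

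Rsad2 and Cmpk2, neighbours on chromosome 12, form the nucleotide arm of the family. Rsad2 encodes viperin, a radical SAM enzyme that turns CTP into a chain terminator of viral RNA polymerases, and Cmpk2 encodes a nucleoside monophosphate kinase that feeds the CTP pool. Rsad2 stood at 1130, 287 and 938 CPM in KO LPS replicates 1, 2 and 3, against 4625, 3825 and 3834 CPM in the WT LPS replicates. In medium it was at 4.12, 2.14 and 2.98 CPM in the KO replicates, against 10.7, 9.60 and 6.05 CPM in the WT replicates. Thus the lowest WT LPS library held over 3 times the level of the highest KO LPS library, and the 2 lines were already apart in medium. The log2 fold change of KO over WT was -2.38 ± 0.44 under LPS (SE, edgeR adjusted p = 0.00299) and -1.50 ± 0.46 in medium (edgeR adjusted p = 0.0453). The medium value lost its call when any of 8 of the 12 libraries was left out, with edgeR adjusted p of up to 0.133. The LPS effect on Rsad2 was 7.99 ± 0.58 in KO cells and 8.87 ± 0.59 in WT cells on the log2 scale, and the difference of -0.88 ± 0.62 did not pass the test (edgeR adjusted p = 0.563).

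Cmpk2 followed Rsad2 at a lower level. It was at 209.5, 56.6 and 162 CPM in the KO LPS replicates, against 1554, 1175 and 1056 CPM in the WT LPS replicates. In medium it was at 0.817, 0.817 and 0.73 CPM in the KO replicates, against 3.56, 3.42 and 1.70 CPM in the WT replicates. Both comparisons of the lines left a gap between the groups, and KO LPS replicate 2 again lay well under its companions. KO cells were 8.85-fold lower under LPS (log2 fold change -3.15 ± 0.43, edgeR adjusted p = 0.000459) and 3.63-fold lower in medium (-1.86 ± 0.52, edgeR adjusted p = 0.0309). The medium call was lost without KO medium replicate 1, 2 or 3 or WT medium replicate 1 (edgeR adjusted p = 0.0742, 0.0776, 0.0837 and 0.0789). LPS raised Cmpk2 by 7.50 ± 0.56 in KO cells and 8.78 ± 0.57 in WT cells on the log2 scale, and the difference missed the threshold (-1.29 ± 0.67, edgeR adjusted p = 0.432). Over the 12 libraries the log2 CPM of both genes had a Pearson r of 0.996, a description in which the 4 groups carry most of the spread. Together the 9 genes took 0.0707% to 0.185% of the counts in KO LPS libraries and 0.564% to 0.688% in WT LPS libraries, and Rsad2 alone took 0.0271% to 0.104% in KO LPS libraries and 0.332% to 0.394% in WT LPS libraries.

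Mx1 and Mx2 encode dynamin-like GTPases that form rings around viral nucleoproteins, Mx1 in the nucleus and Mx2 in the cytoplasm of mouse cells. Most inbred strains, C57BL/6 among them, carry defective alleles of both, so RNA of either gene need not give working protein. The annotation classes Mx2 as a polymorphic pseudogene. Mx1 had 30, 25 and 32 counts in the KO LPS replicates, or 0.652, 0.46 and 0.754 CPM, against 746, 630 and 724 counts in the WT LPS replicates, or 12.9, 15.7 and 11.5 CPM. In medium every library of both lines had between 4 and 8 counts, so the medium levels rest on few reads. The KO line therefore had little Mx1 RNA with or without LPS, at 4.66% of the WT mean under LPS. Its log2 fold change of KO over WT was -4.43 ± 0.25 under LPS (edgeR adjusted p = 3.99e-07) and 0.20 ± 0.35 in medium (edgeR adjusted p = 0.785). Mx1 passed the filter on low counts through the LPS libraries of both lines alone, so a difference between LPS and medium is in part set by the filter.

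Mx2 responded in both lines. It was at 14.6, 6.07 and 12.1 CPM in the KO LPS replicates, against 48.2, 68.9 and 50.8 CPM in the WT LPS replicates. In medium it was at 0.0972, 0.287 and 0.406 CPM in the KO replicates, against 0.527, 0.432 and 0.39 CPM in the WT replicates, and these groups overlapped. KO cells were 5.12-fold lower under LPS (log2 fold change -2.36 ± 0.35, edgeR adjusted p = 0.000624), and the medium value of -0.77 ± 0.49 missed the threshold (edgeR adjusted p = 0.279). The LPS folds of Mx1 and Mx2 in the KO line are set side by side here, and no test compared the 2 genes. Mx2 had 5, 13 and 20 counts in the KO medium replicates and 25, 20 and 25 in the WT medium replicates. The LPS folds of both genes thus rest on few medium reads. LPS raised Mx1 4.93-fold in KO cells and 122-fold in WT cells, and Mx2 41.4-fold in KO cells and 124.5-fold in WT cells. The difference in LPS effect was -4.63 ± 0.43 for Mx1 (edgeR adjusted p = 0.000519) and -1.59 ± 0.61 for Mx2 (edgeR adjusted p = 0.282). Mx1 shares 8.12% of its 31-base stretches with other genes, most often Mx2, and Mx2 shares 7.96%, so a part of the counts could be split between them.

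Ifitm3 and Bst2 guard membranes. IFITM3 sits in endosomes and blocks the fusion of incoming viruses, and BST2, or tetherin, holds budding virions at the cell surface. Ifitm3 was the member whose response turned round between the lines. It had 0.761, 0.202 and 0.565 CPM in the KO LPS replicates, against 11.4, 8.35 and 6.39 CPM in the WT LPS replicates. In medium it had 1.93, 2.10 and 2.94 CPM in the KO replicates, against 1.39, 2.81 and 0.53 CPM in the WT replicates. So all KO LPS libraries lay under all KO medium libraries, all WT LPS libraries lay over all WT medium libraries, and the lines overlapped in medium. LPS lowered Ifitm3 4.59-fold in KO cells (log2 fold change -2.20 ± 0.58, edgeR adjusted p = 0.00971) and raised it 5.56-fold in WT cells (2.48 ± 0.55, edgeR adjusted p = 0.00659). The difference in LPS effect was -4.67 ± 0.80 (edgeR adjusted p = 0.0172), and its adjusted p was 0.057, 0.054 and 0.0534 without KO LPS replicate 3, WT LPS replicate 1 or WT medium replicate 1. Under LPS the KO level was 17.2-fold lower (-4.11 ± 0.61, edgeR adjusted p = 0.000611).

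The level of Ifitm3 in unstimulated libraries moved with the percentage of counts that processed pseudogenes took. WT medium replicates 1, 2 and 3 had shares of 8.89%, 13.1% and 6.57% and Ifitm3 at 1.39, 2.81 and 0.53 CPM. The KO medium replicates, with shares of 12.8%, 13.7% and 14.3%, had 1.93, 2.10 and 2.94 CPM. All LPS libraries had shares of 6.28% to 7.35%. In the KO line treatment and this share cannot be told apart, and with the share as a covariate the LPS effect in KO cells was 0.18 on the log2 scale (edgeR adjusted p = 0.931). Among the libraries of low share, WT medium replicate 3 at 0.53 CPM lay within the range of the KO LPS libraries. The line difference under LPS was -4.30 with the covariate (edgeR adjusted p = 5.34e-07) and the difference in LPS effect was -3.72 (edgeR adjusted p = 0.00396). Ifitm3 shares 20.5% of its 31-base stretches with other genes, most often the pseudogene Gm7676, which had at most 2 counts in any KO library and 4 in any WT library.

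**Figure D2:**
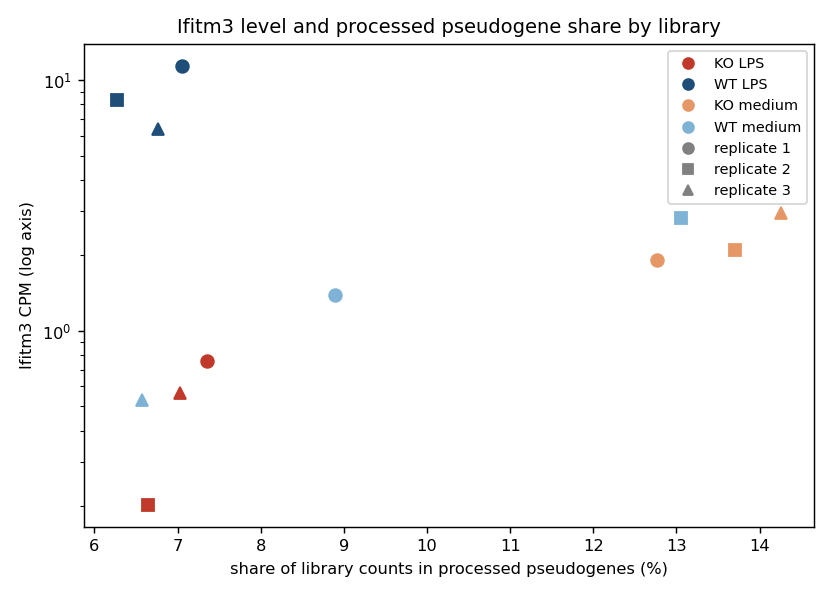
Ifitm3 level (CPM, log axis) against the share of library counts in processed pseudogenes (percent) for the 12 libraries, with colours for the groups and symbols for the replicates. The WT LPS libraries stand above the KO LPS libraries at like shares of 6.28% to 7.35%, and WT medium replicate 3 lies with the KO LPS libraries at 0.53 CPM.

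Bst2 changed least. It was at 65.8, 40.02 and 66.4 CPM in the KO LPS replicates, against 87.8, 82.5 and 88.6 CPM in the WT LPS replicates. In medium it was at 32.8, 28.7 and 31 CPM in the KO replicates, against 29.6, 26.4 and 27.6 CPM in the WT replicates. The groups overlapped in medium and did not overlap under LPS. KO cells were 1.5-fold lower under LPS (log2 fold change -0.59 ± 0.16, edgeR adjusted p = 0.0189), and the value was -0.39 without KO LPS replicate 2, which lay far under the other replicates of its group. The call was lost without WT LPS replicate 1 or 3 (edgeR adjusted p = 0.0585 and 0.0614). LPS raised Bst2 1.86-fold in KO cells and 3.1-fold in WT cells, and the difference of -0.74 ± 0.22 on the log2 scale missed the threshold (edgeR adjusted p = 0.156). Without KO LPS replicate 2 that difference was -0.53 and passed (edgeR adjusted p = 0.0304). When the share of processed pseudogenes entered the fit, the LPS effect in KO cells was 0.92 for Bst2 (edgeR adjusted p = 0.0865) and 1.75 for Mx1 (edgeR adjusted p = 0.419), and both calls were lost.

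Samd9l and Rnf213 encode large cytosolic proteins. SAMD9L restricts poxviruses, and RNF213 is a giant ubiquitin ligase with a motor domain that coats intracellular bacteria and limits several viruses. Samd9l was at 5.71, 3.47 and 4.71 CPM in the KO LPS replicates, against 145, 121 and 86.1 CPM in the WT LPS replicates. In medium it was at 0.505, 0.817 and 0.669 CPM in the KO replicates, against 8.13, 5.62 and 3.40 CPM in the WT replicates. The KO LPS libraries were in the range of WT cells that had never seen LPS. KO cells were 25.4-fold lower under LPS (log2 fold change -4.67 ± 0.35, edgeR adjusted p = 5.44e-06) and 8.59-fold lower in medium (-3.10 ± 0.37, edgeR adjusted p = 0.000203). LPS raised it 6.98-fold in KO cells and 20.6-fold in WT cells. It shares 1.48% of its 31-base stretches with other genes, most often Gm20559, which was at 0.436 CPM in KO LPS cells and 26.6 CPM in WT LPS cells. The difference in LPS effect was -1.56 ± 0.48 (edgeR adjusted p = 0.181), and DESeq2 gave an adjusted p of 0.0271.

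Rnf213 did not pass the test between the lines in unstimulated cells and was lower in KO cells under LPS. It was at 172, 119 and 123 CPM in the KO medium replicates, against 120, 121 and 112 CPM in the WT medium replicates (log2 fold change 0.23 ± 0.17, edgeR adjusted p = 0.351). Under LPS it was at 525, 331 and 387 CPM in the KO replicates, against 1464, 1406 and 1254 CPM in the WT replicates. The groups overlapped in medium, while under LPS the highest KO library lay far below the lowest WT library. KO cells were 3.31-fold lower under LPS (-1.73 ± 0.18, edgeR adjusted p = 3.52e-05). LPS raised Rnf213 3-fold in KO cells and 11.7-fold in WT cells, a difference of -1.96 ± 0.25 on the log2 scale (edgeR adjusted p = 0.00344) that held its call in each of the 12 fits with 1 library left out. A noncoding gene on the opposite strand, A930037H05Rik, overlaps Rnf213, and the strand setting of the counting is not given in the sources used here, so reads of both cannot be told apart with certainty. It was at 8.75 ± 0.43 CPM in KO LPS cells and 20.4 ± 7.1 CPM in WT LPS cells (SD, n = 3 each), a small part of the Rnf213 level.

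Rtp4 encodes a chaperone that brings G protein-coupled receptors to the cell surface and also limits the replication of some RNA viruses. LPS raised it in both lines, and by a larger ratio in KO cells. It was at 57.1, 23.3 and 35.8 CPM in the KO LPS replicates, against 141.5, 119 and 121 CPM in the WT LPS replicates. In medium it was at 0.389, 0.177 and 0.284 CPM in the KO replicates, against 7.58, 6.86 and 4.41 CPM in the WT replicates. As a ratio, the gap between the lines was thus wider without LPS than with it. KO cells were 21.7-fold lower in medium (log2 fold change -4.44 ± 0.42, edgeR adjusted p = 4.22e-05) and 3.28-fold lower under LPS (-1.71 ± 0.30, edgeR adjusted p = 0.00219). LPS raised Rtp4 134-fold in KO cells and 20.3-fold in WT cells. In CPM the mean went from 0.283 to 38.7 in KO cells and from 6.28 to 127 in WT cells. The KO medium replicates held 20, 8 and 14 counts, and 2 of them reached the level of the filter on low counts. The 134-fold rise, the 21.7-fold gap in medium and the difference in LPS effect thus rest on few reads. That difference was 2.73 ± 0.52 on the log2 scale (edgeR adjusted p = 0.0304), the single positive one of the 9. That call was lost when any of 8 of the 12 libraries was left out (edgeR adjusted p of up to 0.0867), while the value stayed between 2.33 and 3.03. Rtp4 shares 12.5% of its 31-base stretches with other genes, most often Gm45338. Gm45338 is a noncoding gene on the same strand that had at most 0.202 CPM in any library. Masp1, which overlaps Rtp4 on the opposite strand, had at most 0.496 CPM.

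**Figure D3:**
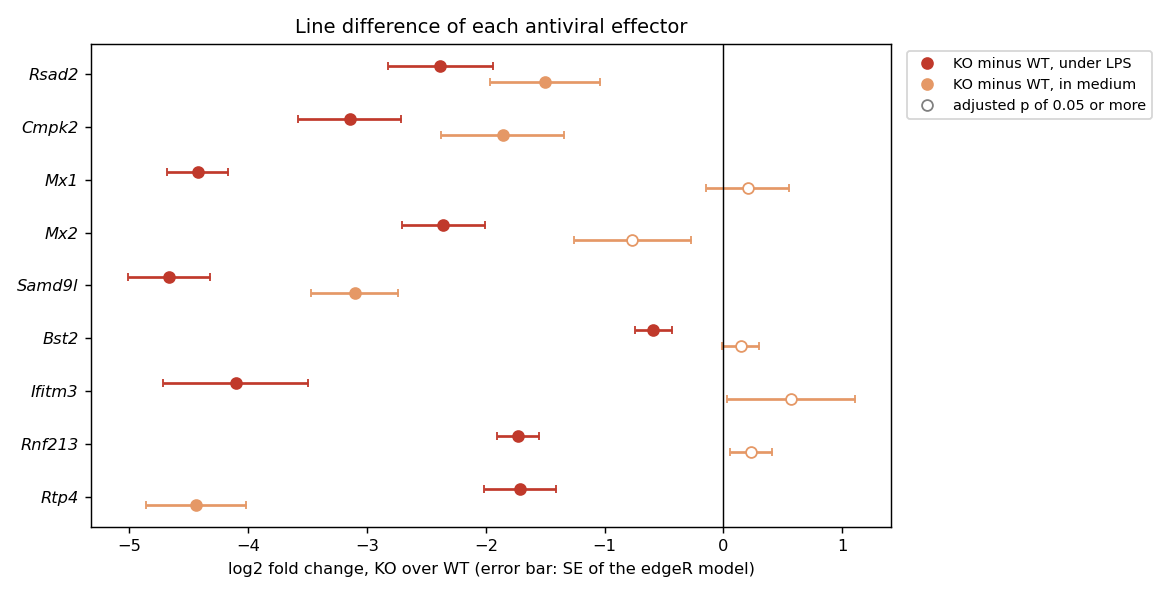
Log2 fold change of KO over WT for the 9 genes under LPS and in medium, with the standard error of the edgeR model; open symbols have an adjusted p of 0.05 or more. Every value under LPS is negative, from -0.59 for Bst2 to -4.67 for Samd9l, and in medium the values run from -4.44 for Rtp4 to 0.57 for Ifitm3.

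In medium 4 of the 9 genes were called between the lines and 5 were not. Rsad2, Cmpk2, Samd9l and Rtp4 were lower in KO cells, while Mx1, Mx2, Bst2, Ifitm3 and Rnf213 did not pass the test, with log2 fold changes between -0.77 and 0.57. Of all genes tested in medium, 12.3% were called lower and 6.88% higher in KO cells, and in 19.6% all KO libraries lay below and in 16% above the WT libraries. The median over the 9 genes was -0.77 in medium and -2.38 under LPS, against 0.04 and 0.07 over all genes tested. The 2 comparisons share no libraries, but each shares libraries with the LPS effects of its groups.

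The LPS effect itself differed between the lines for Mx1, Ifitm3, Rnf213 and Rtp4. The first 3 had a weaker rise or a fall in KO cells, and Rtp4 a larger rise as a ratio. Of all genes tested, 1.6% were called in this test, 0.908% as lower and 0.693% as higher. The median of the 9 genes was -1.56, against -0.02 over all genes. For Rsad2, Cmpk2, Mx2, Samd9l and Bst2 the difference was negative and missed the threshold, which does not show that the lines respond alike. With 1 library left out, 2 to 4 of the 9 genes were called lower in this test.

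**Figure D4:**
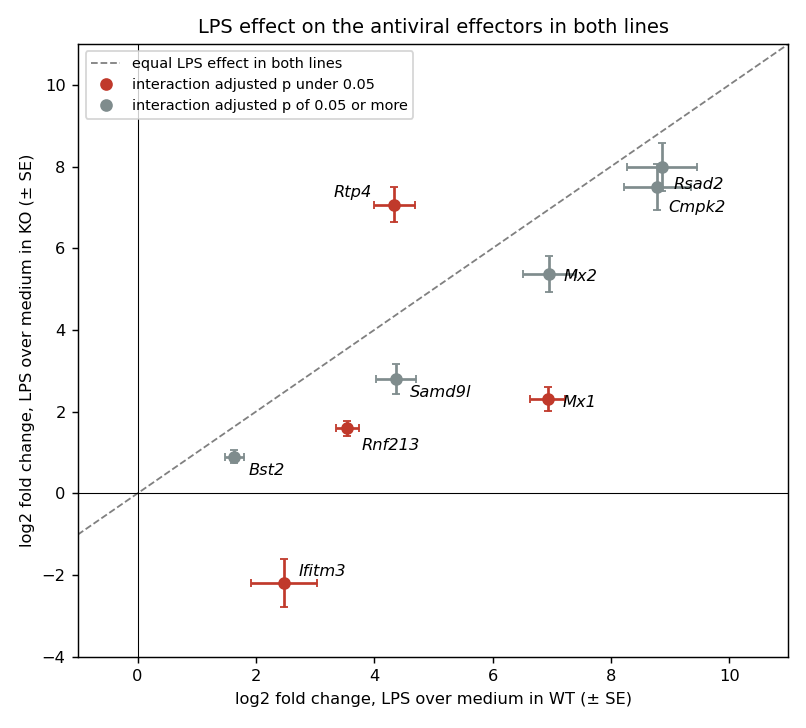
Log2 fold change of LPS over medium in KO cells (vertical axis) against that in WT cells (horizontal axis), each with its standard error, for the 9 genes; the dashed line marks equal effects. Rtp4 lies above the line at 7.07 in KO and 4.34 in WT, Ifitm3 lies below 0 in KO at -2.20, and the other 7 lie under the line.

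Set per kilobase of annotated exon, the family spanned a wide range of levels and its order changed with the line. In KO LPS cells Rsad2 led with 181 ± 102 CPM per kilobase (SD, n = 3), followed by Bst2 with 63.6 ± 16.7, Cmpk2 with 34.3 ± 18.8, Rnf213 with 24.6 ± 5.9 and Rtp4 with 18.2 ± 8.0 CPM per kilobase. In WT LPS cells Rsad2 led with 945 ± 106 CPM per kilobase, followed by Cmpk2 with 303 ± 62, Bst2 with 95.6 ± 3.6, Rnf213 with 81.4 ± 6.4 and Rtp4 with 59.6 ± 5.9. Cmpk2, Rnf213 and Rtp4 lay within each other's spread in KO LPS cells. Bst2 and Rnf213 led in medium, Bst2 with 34.1 ± 2.3 in KO and 30.8 ± 1.8 in WT and Rnf213 with 8.17 ± 1.77 in KO and 6.96 ± 0.31 in WT, all in CPM per kilobase. Mx1 was lowest in every group, at 0.164 ± 0.039 in KO LPS cells and 3.53 ± 0.57 CPM per kilobase in WT LPS cells.

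Among the genes that carry the interferon signal to these effectors, some were lower in KO cells under LPS and others did not pass the test. Of 19 genes of interferon production and signalling, 9 were lower, 9 were not called and Ikbke, a kinase upstream of IRF3, was higher (median -0.45), against 12.7% lower and 7.87% higher among all genes tested. Ifnb1, which encodes interferon beta, stood at 0.827 ± 0.369 CPM in KO LPS cells and 2.61 ± 1.09 CPM in WT LPS cells (SD, n = 3 each; log2 fold change -1.67 ± 0.46 SE, edgeR adjusted p = 0.0239), a call lost without WT LPS replicate 1 or KO LPS replicate 2 or 3 (edgeR adjusted p = 0.11, 0.0813 and 0.0549). Irf7 was 5.98-fold lower (-2.58 ± 0.25). Stat2 was 4.2-fold lower (-2.07 ± 0.16) and Irf9 1.63-fold lower (-0.71 ± 0.17, edgeR adjusted p = 0.0107). The receptor subunits Ifnar1 and Ifnar2 and the kinases Jak1 and Tyk2 did not pass the test, at -0.08, 0.19, 0.06 and -0.45. Among the genes between LPS and Ifnb1, Tlr4, Cd14, Ticam2 and Tbk1 were lower under LPS (-1.15, -0.78, -1.30 and -0.52). Ly96, Ticam1, Traf3 and Irf3 were not called there (-0.05, -0.16, -0.03 and -0.21). In medium 10 of these 19 signalling genes were already lower in KO cells and 0 were higher (median -0.44). Among all genes tested there, 12.3% were lower and 6.88% higher. The 10 were Tlr4 (-0.63), Cd14 (-1.16), Irf7 (-2.045), Irf9 (-1.11), Stat2 (-0.86), Tyk2 (-1.05), Ticam1 (-0.51), Traf3 (-0.40), Tbk1 (-0.44) and Ikbke (-0.52). The part of these differences in the levels of the 9 genes was not tested. Of 22 other antiviral restriction factors, 19 were tested, and 15 were lower and none higher (median -1.49), including the helicase-domain coactivator Helz2 (-2.04 ± 0.19) and the nuclear body protein Sp100 (-2.04 ± 0.27). Their 4 uncalled members under LPS were Ifitm1, Ifitm2, Apobec3 and Dtx3l. In medium 11 of the 19 restriction factors were already lower in KO cells, 0 were higher and 8 were not called (median -0.71). Helz2 and Sp100 were among the lower ones there (-1.78 and -0.97). Of 13 negative regulators of interferon signalling, 12 were tested, and 3 were lower and none higher (median -0.35), namely Usp18, the protease that removes ISG15 and blocks the receptor (-1.56 ± 0.23), Nlrc5 (-0.65 ± 0.10) and Trim30a, which is also counted among the restriction factors. The genes whose log2 CPM over the 12 libraries was most like the mean standardised profile of the 9 were Dhx58, Setdb2, Rabgef1, Ifi205 and Mitd1, with Pearson r between 0.992 and 0.994. Taken singly, Rsad2 and Cmpk2 were each most like Ifit1 (r = 0.998), while the best match of Ifitm3 was Plekha4 (r = 0.929). Such r values over 4 groups of 3 libraries are descriptions in which the group means carry most of the spread.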

How the data were processed

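Total RNA, freed of ribosomal RNA and prepared with a stranded kit, was sequenced as 12 libraries, per the labels' protocols. The authors deposited raw read counts per Ensembl gene. FastQC 0.11.9, Trimmomatic 0.39, STAR 2.7.9a, featureCounts, DESeq2 1.32.0 and the build GRCm39 are named in the submitters' processing notes. Which annotation release and strand setting were used, and how multi-mapping reads were counted, is not given in the sources used here. Symbols, gene classes, exon lengths and shared 31-base stretches came from GENCODE M21 on GRCm38, by identifier, and 52135 of 55416 identifiers matched a symbol. Promoter windows are from RefSeq on GRCm38.p6. The test was edgeR 4.0.16 under R 4.3.3 (filterByExpr by group with a count minimum of 10, TMM, robust glmQLFit, 4 group means, all 12 libraries). Adjusted p-values are Benjamini-Hochberg values over all 26420 genes tested, and a call is an adjusted p under 0.05. CPM are counts scaled to the TMM-corrected library total, and log2 CPM used a prior count of 2. The 9 genes, lists and comparisons were chosen with earlier results of these data known. The genes named beside the 9 are Mok, Ifnb1, Irf7, Stat2, Irf9, per list the 2 largest called changes under LPS at a mean log2 CPM of at least 2, and the genes of most similar profile; others were named after their values were seen, and 1 result that the rule names is not reported here. The p-values reflect the spread among these libraries, which may be technical, since the labels do not say how the replicate cultures were separated. The fit was tested on simulated counts. Alternatives were scaling by RLE or by library size alone, dropping the filter, a stricter filter (1 CPM in 3 libraries), DESeq2 1.42.0, robust estimation off, the replicate block, only the groups compared, protein-coding genes with Mx2 kept, the log2 share of processed pseudogenes as a covariate, and each library left out.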

Additional observations from a re-analysis of the deposited data

Results flagged for a closer look

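The LPS effect differed between the KO line and the WT line for 4 of the 9 genes by the interaction test of edgeR over all genes. On the log2 scale the LPS effect in KO minus that in WT was -4.63 for Mx1 (edgeR adjusted p = 0.000519), with a rise of 2.30 in KO cells and 6.93 in WT cells. Mx1 passed the filter on low counts through the LPS libraries of both lines alone, so the rise in each line is in part set by the filter. It had 4 to 8 counts in each medium library, so the difference rests on few medium reads. For Ifitm3 it was -4.67 (edgeR adjusted p = 0.0172), where the 3 KO LPS libraries lay below the KO medium libraries and the 3 WT LPS libraries above the WT medium libraries. For Rnf213 the difference in LPS effect was -1.96 (edgeR adjusted p = 0.00344). For Rtp4 it was 2.73 (edgeR adjusted p = 0.0304), with a rise of 7.07 in KO cells and 4.34 in WT cells. The KO medium libraries had 8 to 20 counts of Rtp4. Its call held in 4 of the 12 fits with 1 library left out and was lost with no filter (edgeR adjusted p = 0.0973).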

How the results depend on the processing

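All 9 genes were lower in KO cells under LPS in the 10 alternative settings, and 8 or 9 were when a library was left out (8 without WT LPS replicate 1 or 3, where Bst2 was lost). All 9 were higher with LPS in WT cells in every alternative. In KO cells 8 were higher except with the pseudogene share as a covariate, which gave 6 higher and 0 lower, with Ifitm3 at 0.18 there and at -0.59 for KO against WT in medium, both changed in sign. In medium 4 genes were lower in KO, 2 with no filter or with the covariate, and 2 to 4 with a library left out. The positive interaction of Rtp4 gave 1 call, 0 with no filter, and 0 to 1 with a library left out. Counts over all genes for the interaction were 423, 857 with DESeq2, 661 with the replicate block, 671 with protein-coding genes, 199 with the covariate, and 186 to 3997 with a library left out, the highest without WT medium replicate 2. For LPS in WT cells they were 8600, 5574 with the covariate, and 5322 to 10400 with a library left out. For LPS in KO cells they were 13749, 8286 with protein-coding genes and 2001 with the covariate. For KO against WT in medium they were 5074, 3354 with the compared groups only, 2342 with the covariate, and 3444 to 11265 with a library left out, the highest without WT medium replicate 2. The causes were not tested. Same-numbered replicates did not deviate together in every comparison (correlations from -0.37 to 0.39), which does not settle whether the numbers mark shared batches. The replicate block changed no call of the 9 genes. Levels of Mx1 in medium, at 4 to 8 counts a library, limit its comparisons there.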
